A study of Mus musculus with 14 samples.

Results

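The 10 genes described here encode the enzymes that make serine and pass its one-carbon unit to folate: Phgdh, Psat1, Psph, Shmt1, Shmt2, Mthfd1, Mthfd1l, Mthfd2, Mthfd2l and Aldh1l2. Their probe sets were taken by symbol, as those of the deposited expression table that the platform annotation assigns to these names. The list itself was chosen with earlier results of these data known, so counts of its members are descriptions. All 10 were found, each by exactly 1 probe set, out of 19505 genes named in the table. Expression was measured with Affymetrix whole-transcript arrays in hematopoietic progenitor cells (HPCs), the lineage-negative fraction of mouse bone marrow, which is depleted of mature blood cells and enriched for stem cells and early progenitors. After a short culture the cells received a retrovirus with either yellow fluorescent protein alone (MSCV-IRES-YFP, Ctrl) or N-Myc together with it (MSCV-NMyc-IRES-YFP, NMyc). The donor mice carried no (WT, Polg wt/wt), 1 (Het) or 2 (Hom) mutant alleles of Polg, the gene of the mitochondrial DNA polymerase's catalytic subunit. Of the 6 groups, WT-Ctrl and Het-Ctrl have 3 arrays each, and Hom-Ctrl and the NMyc group of each genotype have 2 arrays each. Every group went through the same culture and received a retrovirus from the GP+E86 packaging line. The N-Myc transgene was driven by the retroviral promoter in whichever cells were infected. The labels give neither the ages of the mice nor a sort of YFP-positive cells before RNA extraction. They call the arrays biological replicates without naming separate animals, so p-values cover only the spread among these samples, which may be in part technical.

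Serine is made from the glycolytic intermediate 3-phosphoglycerate by PHGDH, PSAT1 and PSPH, acting in that order. The serine hydroxymethyltransferases SHMT1, in the cytosol, and SHMT2, in mitochondria, convert serine to glycine and load its carbon on tetrahydrofolate. In mitochondria, MTHFD2 or MTHFD2L oxidises the loaded folate and MTHFD1L releases formate, which MTHFD1 in the cytosol puts back on folate for purine and thymidylate synthesis. ALDH1L2 instead burns the mitochondrial unit to CO2 with production of NADPH. The pathway is active in dividing cells, Myc proteins are known to raise the transcription of several of its genes, and Mthfd2, Psat1, Phgdh and Shmt2 are also known targets of ATF4, the transcription factor of the integrated stress response.

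Promoter windows from RefSeq (build GRCm38.p6) were available for 9 of the 10 genes, in 10 windows that run from 250 bases before to 50 bases after an annotated start. No window was listed for Aldh1l2. The canonical E-box bound by Myc proteins, CACGTG, was found in 0 member windows, against 7.15% of all 32851 windows of the same length. The composite element recognised by ATF4 with its C/EBP partners was searched as TGATGNAA on both strands and was likewise found in 0 windows, against 3.97% of all windows. The variant E-box CACGCG was present for 3 members (Psat1, Shmt1 and Shmt2) and in 9.27% of all windows, and the CCAAT box for 6 members (Phgdh, Psat1, Psph, Shmt1, Mthfd1 and Mthfd2) and in 37.4% of all windows. These latter motifs were picked after the windows had been read, so the counts describe letters in a short stretch and nothing more. The motifs searched do not overlap one another in the windows below. Psat1 and Shmt1 are printed as examples of the members called higher with N-Myc in every genotype. Of the other members called so, Shmt2 also holds CACGCG, whereas Phgdh, Mthfd1 and Mthfd1l do not. Mthfd2 and Mthfd1l are printed as the members that differed between Polg genotypes, and Mthfd1l was also higher with N-Myc in every genotype. A second Psat1 window, not printed, holds CACGCG and no CCAAT. Each window is written 5′ to 3′ on the strand of the gene, and capitals mark a match to CACGCG or CCAAT on either strand.

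Psat1 (chr19:15925010-15925309, minus strand): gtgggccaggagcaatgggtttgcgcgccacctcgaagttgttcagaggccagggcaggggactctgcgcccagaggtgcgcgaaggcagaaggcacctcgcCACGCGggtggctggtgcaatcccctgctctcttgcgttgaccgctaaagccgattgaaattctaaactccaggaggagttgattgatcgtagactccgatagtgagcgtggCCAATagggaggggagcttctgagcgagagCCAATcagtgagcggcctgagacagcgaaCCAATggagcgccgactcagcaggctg

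Shmt1 (chr11:60811216-60811515, minus strand): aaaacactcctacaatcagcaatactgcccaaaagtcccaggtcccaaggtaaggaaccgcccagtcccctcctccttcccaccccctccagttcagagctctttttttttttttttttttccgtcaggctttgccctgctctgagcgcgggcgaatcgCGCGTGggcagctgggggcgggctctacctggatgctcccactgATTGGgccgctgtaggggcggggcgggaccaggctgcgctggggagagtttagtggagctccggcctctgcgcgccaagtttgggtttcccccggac

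Mthfd2 (chr6:83317555-83317854, minus strand): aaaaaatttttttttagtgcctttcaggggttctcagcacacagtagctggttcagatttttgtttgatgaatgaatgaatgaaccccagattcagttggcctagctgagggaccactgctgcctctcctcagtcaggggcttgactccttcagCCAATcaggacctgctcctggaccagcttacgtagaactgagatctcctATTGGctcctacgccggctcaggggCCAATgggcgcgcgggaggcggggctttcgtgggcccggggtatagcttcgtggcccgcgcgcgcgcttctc

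Mthfd1l (chr10:3972825-3973124, plus strand): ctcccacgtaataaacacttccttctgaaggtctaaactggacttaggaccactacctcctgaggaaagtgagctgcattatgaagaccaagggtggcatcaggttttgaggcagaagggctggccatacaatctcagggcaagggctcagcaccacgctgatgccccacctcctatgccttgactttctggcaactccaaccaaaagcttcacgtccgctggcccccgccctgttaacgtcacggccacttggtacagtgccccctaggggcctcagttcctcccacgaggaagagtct

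The printed Psat1 window holds 1 variant E-box and several CCAAT boxes near the start, and Shmt1 holds 1 of each. Mthfd2 holds only CCAAT boxes, and Mthfd1l holds no match to any motif searched.

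All values below are log2 signals as deposited. A difference of 1 on this scale is a 2-fold difference. Differences were tested with limma across 22206 probe sets, with Benjamini-Hochberg adjustment over all of them, and a difference was called when its adjusted p was under 0.05. The arrays correlated at 0.958 to 0.994 and their medians lay within 0.0840 of each other. Mycn checked the labels: the NMyc arrays read 12.15 to 12.38 and the Ctrl arrays 7.43 to 7.76, except Hom-Ctrl replicate 1, which read 9.77 and stood apart from every other Ctrl array. Because Hom-Ctrl has only 2 arrays, results that rest on this group were repeated without replicate 1, and the main changes are given beside them. Myc read 11.19 to 11.50 on Ctrl arrays and 9.45 to 10.64 on NMyc arrays. Its N-Myc difference was -1.32 averaged (limma adjusted p = 4.51e-08), -1.72 in WT, -1.46 in Het and -0.77 in Hom. The limma test of Hom against WT for this effect was not called (0.95, adjusted p = 0.183). The part of Myc in the members' differences was not tested. Polg was read at 6.91 to 7.67 over all arrays; the labels describe a mutant allele, not a loss of transcript, so its level does not check the genotype. All 10 members lay above the median of the negative control probe sets on all 14 arrays, so none cleared this mark through 1 group alone. The mark is not a detection limit, since negative control sets lie on both sides of it. Aldh1l2, at 5.19 to 6.42, had a mean at percentile 41.1 of the tested probe sets and may lie near background. The arrays carry sample codes in 3 runs of consecutive numbers, whose meaning the labels do not give: run 1 holds only Ctrl arrays (replicate 1 of each genotype), run 2 holds Ctrl replicate 2 and NMyc replicate 1, and run 3 holds WT-Ctrl and Het-Ctrl replicate 3 and NMyc replicate 2.

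Most of the pathway was higher with N-Myc. Averaged over the 3 genotypes, 8 of 10 members were called and all 8 were higher with NMyc, where 33.6% of all probe sets were called and 18.2% were called higher. The median difference of the members was 1.17, against -0.02 for all probe sets. The differences were 1.67 for Shmt1, 1.62 for Mthfd1, 1.49 for Shmt2, 1.25 for Phgdh, 1.22 for Mthfd1l, 1.12 for Psat1, 0.56 for Psph and 0.35 for Mthfd2l. Mthfd2 and Aldh1l2, which both encode mitochondrial dehydrogenases, were not called. In 7 members the lowest NMyc array lay above the highest Ctrl array of the same genotype in all 3 genotypes. In bulk RNA of this kind, a change in the share of cells of a type and a change in RNA per cell cannot be told apart.

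**Figure D1:**
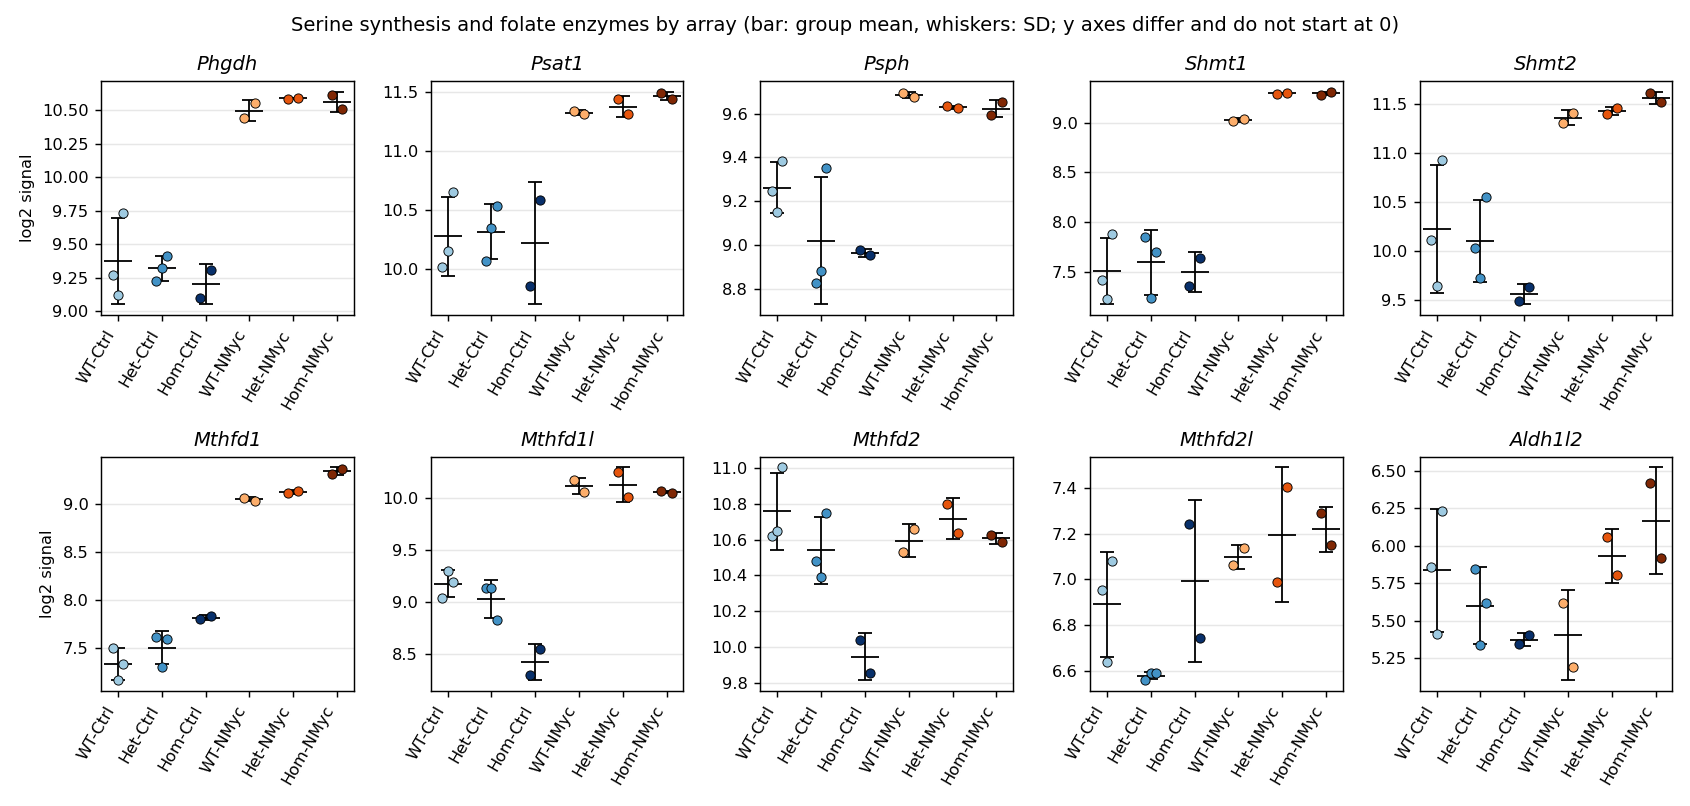
Log2 signal of each of the 10 genes (vertical axes, which differ between panels and do not start at 0) on every array, by group (horizontal axes); points are arrays, the bar is the group mean and the whiskers are 1 SD. Phgdh, Psat1, Psph, Shmt1, Shmt2, Mthfd1 and Mthfd1l are higher on every NMyc array than on the Ctrl arrays of the same genotype, whereas Mthfd2 is low only on the 2 Hom-Ctrl arrays (10.04 and 9.85).

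The serine synthesis branch rose at each of its steps. Phgdh, which encodes the dehydrogenase that commits 3-phosphoglycerate to serine, read 9.27, 9.12 and 9.73 in WT-Ctrl, 9.23, 9.32 and 9.41 in Het-Ctrl, 9.10 and 9.31 in Hom-Ctrl, 10.44 and 10.55 in WT-NMyc, 10.59 and 10.59 in Het-NMyc, and 10.62 and 10.51 in Hom-NMyc. The highest Ctrl value, WT-Ctrl replicate 3, lay well below the lowest NMyc value, so the vectors did not overlap. Phgdh was 2.38-fold higher with NMyc (log2 difference 1.25, SE 0.10, adjusted p = 1.17e-07), and the difference was 1.12 in WT, 1.27 in Het and 1.36 in Hom.

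Psat1, the aminotransferase of the next step, read 10.02, 10.16 and 10.66 in WT-Ctrl, 10.07, 10.35 and 10.54 in Het-Ctrl, 9.86 and 10.59 in Hom-Ctrl, and between 11.32 and 11.50 on the 6 NMyc arrays. Its Ctrl arrays were spread over a wide range, with the 2 Hom-Ctrl arrays at or near its ends, while the NMyc arrays lay close together. The difference was 1.12 (SE 0.13, 2.17-fold, adjusted p = 4.95e-06).

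Psph, the phosphatase that releases serine, moved least of the branch. It read 9.25, 9.15 and 9.38 in WT-Ctrl, 8.82, 8.88 and 9.35 in Het-Ctrl, 8.98 and 8.95 in Hom-Ctrl, and 9.59 to 9.70 on the NMyc arrays. The NMyc arrays again lay above every Ctrl array, by a narrow margin over WT-Ctrl replicate 3 and Het-Ctrl replicate 3. The averaged difference was 0.56 (SE 0.10, 1.48-fold, adjusted p = 0.000184). Within genotypes it was 0.42 in WT (adjusted p = 0.0799, not called), 0.61 in Het and 0.66 in Hom (adjusted p = 0.0126 and 0.0150). The Het call was lost without Het-Ctrl replicate 1 or 2 or either Het-NMyc array (adjusted p up to 0.0849), and the Hom call without any of the 4 Hom arrays (adjusted p up to 0.103). The branch therefore did not move as a block: the log2 ratio of Phgdh over Psph within an array was 0.69 higher with NMyc (0.70 in WT, 0.66 in Het, 0.70 in Hom), and an exact permutation test that exchanged vectors within genotypes (600 arrangements, two-sided) gave p = 0.00167, the smallest it can give, and 0.005 after adjustment over 6 pairs. For Phgdh over Psat1 the change was 0.13 (adjusted p = 0.268), and without Hom-Ctrl replicate 1 it was 0.22 and called (adjusted p = 0.04, same exact test).

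Shmt1 and Shmt2, which split serine in the cytosol and in mitochondria, both rose. Shmt1 read 7.42, 7.23 and 7.88 in WT-Ctrl, 7.86, 7.24 and 7.70 in Het-Ctrl, 7.36 and 7.64 in Hom-Ctrl, 9.01 and 9.04 in WT-NMyc, 9.29 and 9.29 in Het-NMyc, and 9.28 and 9.30 in Hom-NMyc. The gap between the vectors exceeded the whole spread of the Ctrl arrays. Shmt1 had the largest averaged difference of the members, 1.67 (SE 0.12, 3.18-fold, adjusted p = 3.90e-08). The pooled SD within groups was 0.306 for the Ctrl arrays and 0.0144 for the NMyc arrays.

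Shmt2 had the widest spread of the members among Ctrl arrays (pooled SD within groups 0.490). It read 10.11, 9.64 and 10.93 in WT-Ctrl, 10.03, 9.73 and 10.55 in Het-Ctrl, 9.48 and 9.63 in Hom-Ctrl, and 11.30 to 11.60 on the NMyc arrays. WT-Ctrl replicate 3 and Het-Ctrl replicate 3, both of code run 3, were the highest Ctrl arrays, and no Ctrl array reached the NMyc range. The averaged difference was 1.49 (SE 0.17, 2.80-fold, adjusted p = 3.93e-06), with 1.13 in WT, 1.32 in Het and 2.00 in Hom. The call in WT was lost without either WT-NMyc array, with adjusted p up to 0.0822. Within a code run the difference ranged from 0.48 to 1.98 over 5 run and genotype pairs. The ratio of Shmt2 over Shmt1 changed by -0.18 (adjusted p = 0.268, exact permutation test).

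Mthfd1, which joins formate to tetrahydrofolate in the cytosol and interconverts the products, had the smallest p of the members. It read 7.50, 7.17 and 7.33 in WT-Ctrl, 7.61, 7.30 and 7.60 in Het-Ctrl, 7.80 and 7.83 in Hom-Ctrl, 9.06 and 9.03 in WT-NMyc, 9.11 and 9.13 in Het-NMyc, and 9.31 and 9.37 in Hom-NMyc. The groups lay in the order WT, Het, Hom under both vectors, although no step in that order was called. The averaged N-Myc difference was 1.62 (SE 0.09, 3.07-fold, adjusted p = 2.74e-09), with similar values in each genotype (1.72 in WT, 1.62 in Het, 1.52 in Hom).

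In the mitochondrial arm, the enzyme that releases formate rose and the dehydrogenases did so less or were not called. Mthfd1l read 9.04, 9.30 and 9.19 in WT-Ctrl, 9.14, 9.13 and 8.82 in Het-Ctrl, 8.30 and 8.54 in Hom-Ctrl, 10.17 and 10.06 in WT-NMyc, 10.25 and 10.01 in Het-NMyc, and 10.06 and 10.05 in Hom-NMyc. The NMyc arrays of the 3 genotypes overlapped, while the Hom-Ctrl arrays lay below all other Ctrl arrays. The averaged difference was 1.22 (SE 0.09, 2.33-fold, adjusted p = 5.71e-08), with 0.94 in WT, 1.10 in Het and 1.63 in Hom.

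Mthfd2, the mitochondrial dehydrogenase that is high in embryos and dividing cells, behaved unlike the members described above. Like Aldh1l2 below, it was called with N-Myc in Hom only. It read 10.62, 10.65 and 11.01 in WT-Ctrl, 10.48, 10.39 and 10.75 in Het-Ctrl, 10.04 and 9.85 in Hom-Ctrl, 10.53 and 10.66 in WT-NMyc, 10.80 and 10.64 in Het-NMyc, and 10.63 and 10.59 in Hom-NMyc. The NMyc arrays overlapped the Ctrl arrays of WT and Het, and stood above both Hom-Ctrl arrays. The averaged difference was 0.23 (SE 0.10, adjusted p = 0.0854), which was not called, although it was called under 5 of 24 other settings (adjusted p 0.0106 to 0.277 over all 24).

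By genotype, the Mthfd2 difference was -0.16 in WT (95% interval -0.50 to 0.18, adjusted p = 0.577) and 0.18 in Het (-0.16 to 0.52), and neither was called. In Hom it was 0.66 (1.58-fold, adjusted p = 0.0153). The call in Hom was lost without Hom-Ctrl replicate 2 (difference 0.57, adjusted p = 0.0983) or without either Hom-NMyc array, and was kept without Hom-Ctrl replicate 1. Within code runs, Mthfd2 was higher with NMyc in 2 of 5 run and genotype pairs, from -0.35 to 0.78.

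Relative to Mthfd1 on the same array, Mthfd2 was lower with NMyc. The log2 ratio of Mthfd2 over Mthfd1 changed by -1.39 on average (-1.88 in WT, -1.44 in Het, -0.86 in Hom), with an exact permutation p of 0.00167, the smallest the design allows, and 0.005 after adjustment over the 6 pairs. It ranged from 2.02 to 3.68 on the Ctrl arrays and from 1.22 to 1.69 on the NMyc arrays, so the vectors did not overlap. A ratio of this kind shows that the paired genes changed unequally and says nothing of their absolute amounts. For Mthfd1l over Mthfd1 the change was -0.40 (adjusted p = 0.06), at -0.78 for WT, -0.52 for Het and 0.11 for Hom, and it was called without Hom-Ctrl replicate 1 (-0.43, adjusted p = 0.0333).

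Mthfd2l, a second mitochondrial dehydrogenase found mainly in adult tissues, was nearer the background, at 6.56 to 7.40 on all arrays. Ctrl and NMyc arrays overlapped in WT and Hom, and the 3 Het-Ctrl arrays lay together at 6.56 to 6.59, below every other array. The averaged difference was 0.35 (SE 0.11, 1.27-fold, adjusted p = 0.0184) and was lost without any of 3 single arrays (Hom-Ctrl replicate 2, Het-NMyc replicate 2 or Hom-NMyc replicate 1, adjusted p up to 0.0776). Within genotypes only the difference in Het was called (0.61, adjusted p = 0.0245), and it was lost without any of the 3 Het-Ctrl arrays or without Het-NMyc replicate 2 (adjusted p up to 0.298). The ratio of Mthfd2 over Mthfd2l changed by -0.12 (adjusted p = 0.448, exact permutation test).

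Aldh1l2, the mitochondrial formyl-tetrahydrofolate dehydrogenase, had the lowest signals of the list. It read 5.86, 5.41 and 6.23 in WT-Ctrl, 5.85, 5.34 and 5.62 in Het-Ctrl, 5.34 and 5.40 in Hom-Ctrl, 5.61 and 5.19 in WT-NMyc, 6.06 and 5.80 in Het-NMyc, and 6.42 and 5.92 in Hom-NMyc. The vectors overlapped in WT and Het, and both Hom-NMyc arrays exceeded both Hom-Ctrl arrays. The averaged difference was 0.23 (adjusted p = 0.235). In WT cells it was -0.43 (adjusted p = 0.244), in Het cells 0.33 (adjusted p = 0.403), and in Hom cells 0.80 (1.74-fold, adjusted p = 0.0410). The Hom call was lost under 9 of 24 other settings, among them the fit with the code run as a block and that with code runs 2 and 3 only. It was also lost without Hom-Ctrl replicate 1 (difference 0.77) and without Hom-NMyc replicate 1 (difference 0.55).

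**Figure D2:**
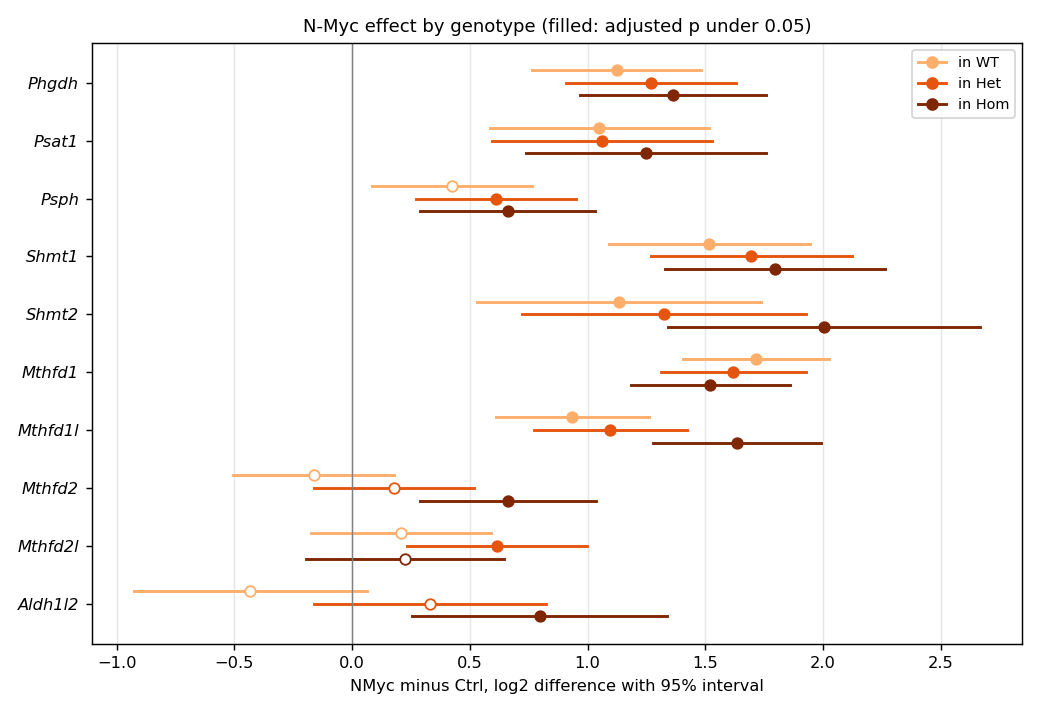
NMyc minus Ctrl log2 difference (horizontal axis) of each gene (vertical axis) in WT, Het and Hom cells, with the 95% interval; filled points have an adjusted p under 0.05. The differences of 6 genes are called in every genotype, Psph only in Het and Hom, Mthfd2l only in Het, and Mthfd2 (0.66) and Aldh1l2 (0.80) only in Hom.

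Counted by genotype, 6 members were called in WT, where 19.1% of all probe sets were called and 10.1% were called higher. In Het 8 members were called, against 19.1% of probe sets called and 11.1% called higher. In Hom 9 members were called, against 17.7% called and 10.7% called higher. All of these member calls were higher with NMyc. Without Hom-Ctrl replicate 1, 7 members were called in Hom, where 10.8% of probe sets were called; the calls lost were Psph and Aldh1l2. A larger count in Hom is not by itself a difference between genotypes, and the test of that difference is given below. Within the code runs that hold both vectors, Phgdh, Psat1, Psph, Shmt1, Shmt2, Mthfd1, Mthfd1l and Mthfd2l were higher with NMyc in all 5 run and genotype pairs.

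Among Ctrl arrays, 2 of the 5 mitochondrial enzymes of the list were lower in homozygous Polg mutant cells. Between Hom-Ctrl and WT-Ctrl 2 members were called, both lower in Hom, where 3.91% of all probe sets were called and 1.88% were called lower. They were Mthfd2 and Mthfd1l, which catalyse successive steps. The median member difference was -0.23, against 0.00 for all probe sets. The other 8 members were not called. Leaving out either Hom-Ctrl array leaves 1 array in that group, and fewer probe sets were called over the whole table. The call of Mthfd1l was then lost in both cases, and that of Mthfd2 without replicate 2. Both stayed lower in Hom under all 24 other settings, with differences of -0.97 to -0.69 for Mthfd2 and -0.88 to -0.63 for Mthfd1l. Many of these settings cannot move the difference, which is that of 2 group means. They leave out an array of another group, or change only the probe sets, the groups fitted or the eBayes step.

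Mthfd2 was 1.76-fold lower in Hom-Ctrl than in WT-Ctrl (log2 difference -0.81, SE 0.16, adjusted p = 0.0118), and both Hom-Ctrl arrays lay below all 6 other Ctrl arrays. Without Hom-Ctrl replicate 1, the array with the raised Mycn signal, the difference was -0.91 (adjusted p = 0.0295). Without Hom-Ctrl replicate 2 it was -0.72 (adjusted p = 0.143), and with only the groups compared in the fit the adjusted p was 0.0911. Compared within code runs, it was -0.58 in run 1 and -0.80 in run 2.

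Mthfd1l was 1.69-fold lower (log2 difference -0.76, SE 0.15, adjusted p = 0.0130), again with both Hom-Ctrl arrays below the other Ctrl arrays. The call was lost without Hom-Ctrl replicate 1 (-0.63, adjusted p = 0.0976) and without Hom-Ctrl replicate 2 (-0.88, adjusted p = 0.0652), and the within-run differences were -0.74 and -0.76. It was also lost with only the groups compared in the fit (adjusted p = 0.102) and with code runs 2 and 3 only (-0.70, adjusted p = 0.0814).

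The other members of the arm were not called. Shmt2 differed by -0.67 (95% interval -1.27 to -0.06, adjusted p = 0.239), but by -0.01 within run 2 and -0.62 within run 1. Aldh1l2 differed by -0.46 (adjusted p = 0.333) and Mthfd2l by 0.10 (adjusted p = 0.843). The cytosolic Mthfd1 lay the other way, at 0.48 (95% interval 0.18 to 0.79, adjusted p = 0.0809), with both Hom-Ctrl arrays above every other Ctrl array. Over the 8 Ctrl arrays Mthfd1 and Mthfd1l ran in opposite directions (Pearson r = -0.876, a description of arrays that share genotype and run).

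In the serine branch, Hom-Ctrl minus WT-Ctrl was -0.17 for Phgdh (adjusted p = 0.685), -0.06 for Psat1 (95% interval -0.52 to 0.41) and -0.30 for Psph (adjusted p = 0.375), and for Shmt1 it was -0.01 (95% interval -0.44 to 0.42).

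Mthfd1l and Mthfd2 were also compared between mutant genotypes. Between Hom-Ctrl and Het-Ctrl 1 member was called, Mthfd1l at -0.61 (adjusted p = 0.0497), where 2.4% of all probe sets were called and 1.06% were called lower. That call stood at the threshold and was lost under 18 of 24 other settings, without either Hom-Ctrl array among them. Mthfd2 differed by -0.59 (adjusted p = 0.0666). Between Het-Ctrl and WT-Ctrl 0 members were called by limma and 0% of all probe sets, with 0 members and 935 probe sets at an unadjusted p under 0.05. Mthfd2 there was -0.22 (95% interval -0.52 to 0.09) and Mthfd1l was -0.15 (-0.44 to 0.14). Same-numbered WT-Ctrl and Het-Ctrl arrays deviated together, so this comparison was also fitted on these groups with the replicate number as a block: limma again called 0 members and 0 probe sets, with 0 members and 1065 probe sets at an unadjusted p under 0.05. Within the 3 pairs, Mthfd2 was lower in Het each time (-0.14, -0.26 and -0.25; adjusted p = 0.987 with the block), as were Psph, Mthfd2l and Aldh1l2, and Mthfd1 was higher each time (0.12, 0.14 and 0.27).

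With N-Myc, no genotype difference was called for any member. Between Hom-NMyc and WT-NMyc limma called 0 members and 0% of probe sets, and 1 member and 1873 probe sets had an unadjusted p under 0.05. That member was Aldh1l2, at 0.77 (adjusted p = 0.40). Mthfd2 differed by 0.01 (95% interval -0.36 to 0.39) and Mthfd1l by -0.06 (-0.41 to 0.30). Between Het-NMyc and WT-NMyc, and between Hom-NMyc and Het-NMyc, limma also called 0% of probe sets, with 0 members and 576 and 1093 probe sets at an unadjusted p under 0.05.

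**Figure D3:**
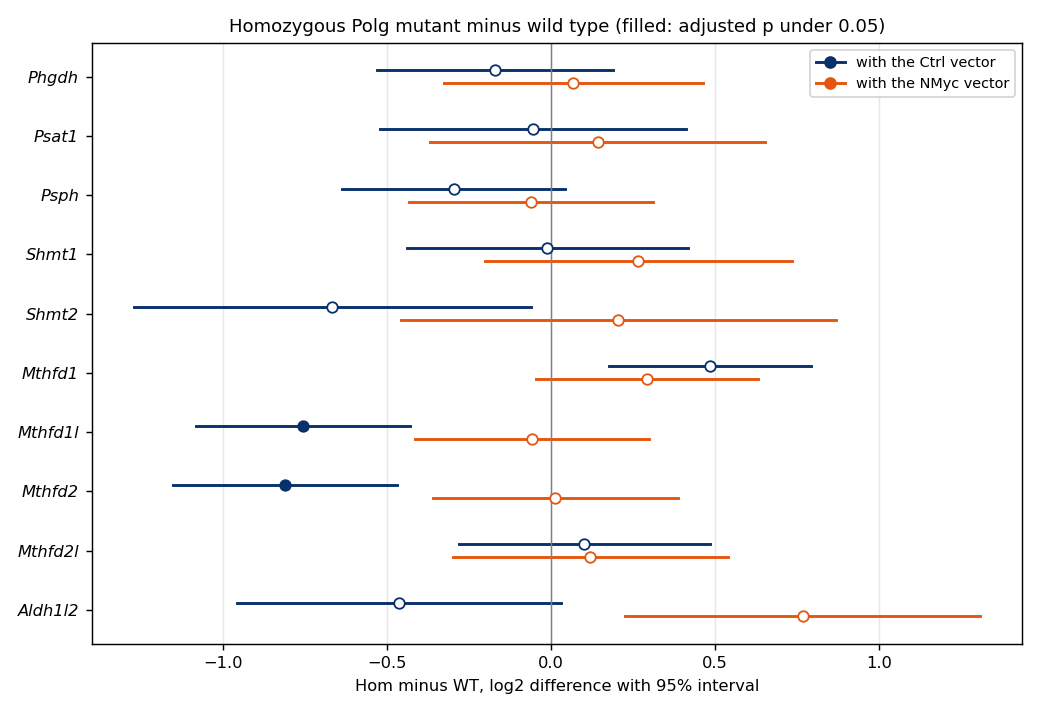
Hom minus WT log2 difference (horizontal axis) of each gene (vertical axis) with the Ctrl vector and with the NMyc vector, with the 95% interval; filled points have an adjusted p under 0.05. Mthfd2 (-0.81) and Mthfd1l (-0.76) are the called genes with the Ctrl vector, and none is called with NMyc.

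The difference of the N-Myc effect between genotypes was tested directly. For Hom against WT limma called 0 members, where 0.0811% of all probe sets (18) were called, and 3 members and 1896 probe sets had an unadjusted p under 0.05. The 3 were Aldh1l2, with a difference of 1.23 (95% interval 0.50 to 1.96, adjusted p = 0.243), Mthfd2 with 0.83 (0.32 to 1.33, adjusted p = 0.257), and Mthfd1l with 0.70 (0.21 to 1.18, adjusted p = 0.350). Shmt2 had 0.87 (adjusted p = 0.596). The larger N-Myc differences in Hom thus did not pass the test of the difference itself, and they share the Hom-Ctrl arrays with the genotype comparison above. For Het against WT limma called 0 members and 0% of probe sets (1 member and 730 probe sets at an unadjusted p under 0.05), and for Hom against Het 0 members against 0.0315% of probe sets (1 member and 1537 probe sets).

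Genes around the pathway were read from lists that were chosen with earlier results of these data known, and their counts are descriptions. For the N-Myc effect averaged over genotypes, the list medians below stand against -0.02 for all probe sets. Purine synthesis, which takes up formyl groups from folate, rose widely: 10 of 11 measured genes were called higher and 1 lower, with a median of 0.93. Ppat, the amidotransferase that opens the route, was higher by 1.79 (adjusted p = 1.93e-07). Gart, which uses formyl-folate, was higher by 1.57 and Adsl, the adenylosuccinate lyase, by 1.51.

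In the thymidylate and deoxynucleotide list 6 of 7 genes were called higher and 0 lower (median 0.77), led by Dctd, the deoxycytidylate deaminase, at 2.17. Tyms, the thymidylate synthase, which consumes methylene-folate, was higher by 1.02 (adjusted p = 6.07e-06). Of 12 folate cycle and carrier genes 6 were called higher and 3 lower (median 0.40). The reduced folate carrier Slc19a1 was higher by 1.87 and the mitochondrial folate carrier Slc25a32 by 0.92, whereas Mthfs, which recycles a storage form of folate, was lower (-1.11). The methionine cycle had 5 of 9 called higher and 0 lower (median 0.39), with Mtrr at 0.88 and Ahcy at 0.68.

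Serine and glycine use and carriers was a mixed list, with 7 of 18 called higher and 5 lower (median 0.10). Those called higher included Gcsh, the carrier protein of the glycine cleavage system, at 1.34, the glutamine and serine transporter Slc1a5 at 1.12, and the mitochondrial serine carrier Sfxn1 at 1.06. Of the genes for formylmethionine in mitochondrial translation, 3 of 3 were called higher, with Mars2 at 0.96 and Mtfmt, which formylates the initiator tRNA, at 0.60; the remaining gene, Metap1d, was above the negative control median on only 8 of 14 arrays. Glycolysis, which supplies the carbon for serine, had 7 of 14 called higher and 2 lower (median 0.22), with Pfkl at 0.88, Ldha at 0.57 and the aldolase Aldoc lower (-1.55).

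The list of ATF4 response genes went the other way from the members: 3 of 19 were called higher and 9 lower with NMyc (median -0.37). Ddit3, the stress factor CHOP, was lower (-2.33, adjusted p = 3.89e-09), as were Nupr1 (-1.66), Vldlr (-1.23) and Sesn2 (-0.70). In WT 0 were called higher and 9 lower, and in Hom 6 were called higher and 3 lower. For the N-Myc effect in Hom against WT, 3 of 19 were called, all with the larger value in Hom. With only the groups compared in the fit, that test called 0 of 22206 probe sets, so these 3 calls were lost there. Without Hom-Ctrl replicate 1, 2 were called higher and 2 lower in Hom, and the test of the difference called the same 3 genes (Chac1, Vldlr and Cth, named after their values were seen).

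In Hom-Ctrl against WT-Ctrl the same list had 0 called higher and 6 lower of 19 (median -0.64, against 0.00 for all probe sets). Chac1, a glutathione-degrading enzyme, was lower (-1.20, adjusted p = 0.00157), as were Vldlr (-0.94) and Atf4 itself (-0.73, adjusted p = 0.0124). Without Hom-Ctrl replicate 1, 5 were called lower and Atf4 was at -0.75 (adjusted p = 0.0483). Serine and glycine use had 1 called higher (Gcsh, 0.64) and 2 lower (the serine transporters Slc38a2, -0.61, and Slc1a5, -0.78; without Hom-Ctrl replicate 1, 0 were called lower), and the thymidylate list had 1 higher (Dctd, 0.78). The folate, purine, methionine, formylmethionine and glycolysis lists had 0 called in either direction; without Hom-Ctrl replicate 1, 1 methionine cycle gene was called higher.

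**Figure D4:**
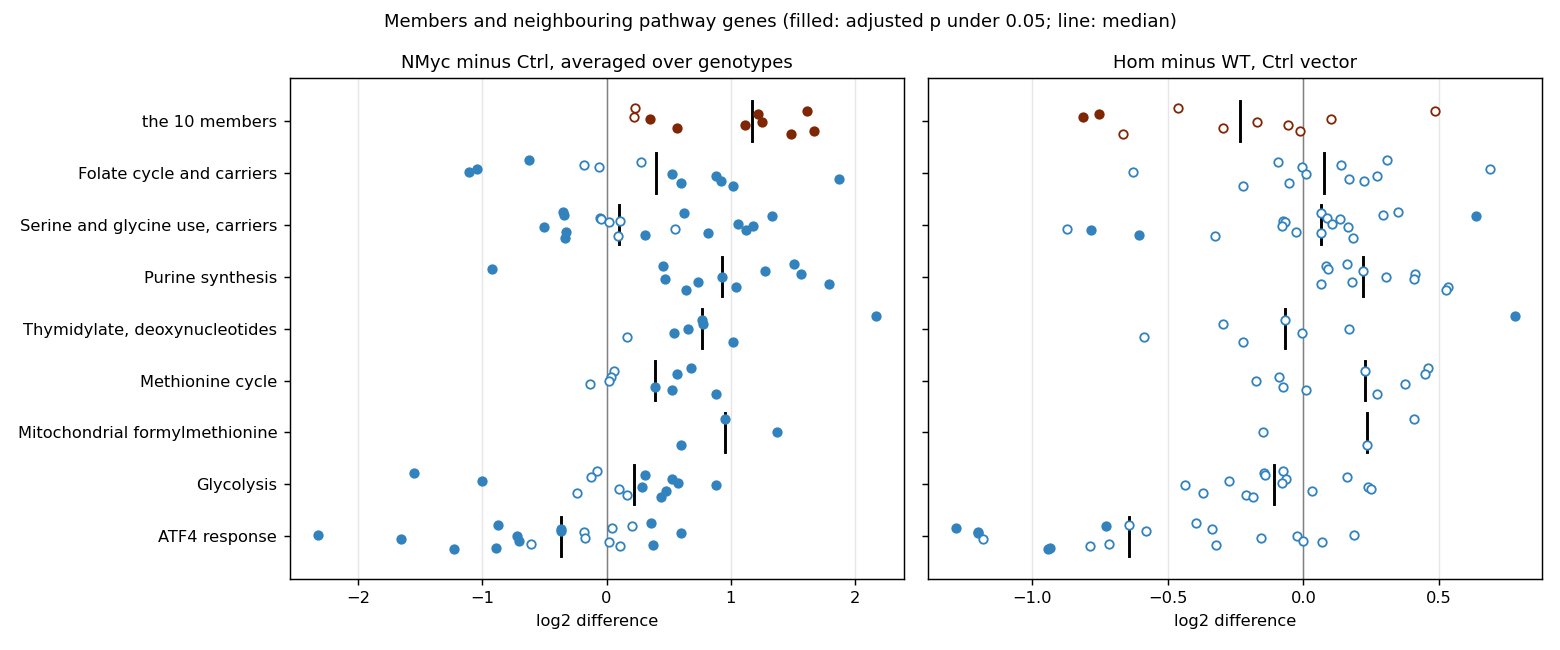
Log2 difference (horizontal axes) of the 10 members and of the genes of 8 pathway lists (rows), for NMyc minus Ctrl averaged over genotypes (left) and Hom minus WT with the Ctrl vector (right); each point is a gene, filled where the adjusted p is under 0.05, and the vertical line is the median of the row. The members' median is 1.17 on the left, where the formylmethionine list (3 genes) is at 0.96 and the purine list at 0.93, and on the right the ATF4 response list has the lowest median, -0.64.

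The pattern most like that of each member was sought over the 14 arrays, which fall into NMyc and Ctrl arrays, so that every gene with a clear N-Myc difference correlates with every other. Phgdh was most like Eif3b, a subunit of a translation initiation factor (Pearson r = 0.995), Psat1 most like Tsr1, a ribosome assembly factor (0.988), and Shmt1 most like Pes1, another ribosome assembly factor (0.989). Shmt2 was most like Cdt1, a DNA replication licensing factor (0.992), Mthfd1 most like the co-chaperone gene Fkbp4 (0.992), Mthfd1l most like Exoc8 (0.964) and Psph most like Foxp1 (0.963). The lower signals of Mthfd2l and Aldh1l2 had weaker best matches, Aim2 (0.863) and Slamf9 (0.867).

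Mthfd2 was most like Atf4 (r = 0.965 over 14 arrays), followed by Mars1, the cytosolic methionyl-tRNA synthetase (0.953). Within each vector r was 0.966 over the 8 Ctrl arrays and 0.855 over the 6 NMyc arrays. Since Atf4 was picked as the closest gene over these same arrays, these values are no separate support for the likeness. Atf4 read 11.80, 11.70 and 11.96 in WT-Ctrl, 11.68, 11.61 and 11.96 in Het-Ctrl, and 11.11 and 11.07 in Hom-Ctrl. On the NMyc arrays it read 11.71 to 11.87, so that, as for Mthfd2, the 2 Hom-Ctrl arrays were the low ones. The NMyc difference of Atf4 in Hom was 0.62 (adjusted p = 0.0129; 0.65 and 0.0533 without Hom-Ctrl replicate 1), and averaged over genotypes it was 0.21 (adjusted p = 0.0824). Arrays of 1 genotype and vector are not independent points, and no p is given for these correlations.

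Markers of cell state and cell type moved with the vector, beside the pathway. Of 10 proliferation genes 8 were called higher with NMyc and 0 lower; their summed level (log2 of the summed linear signals) was 13.61 to 13.97 on Ctrl arrays and 14.12 to 14.20 on NMyc arrays. All 7 monocyte and macrophage genes were called lower, with a summed level of 13.9 to 14.5 on Ctrl arrays and 12.9 to 13.1 on NMyc arrays, and all 5 megakaryocyte genes were lower (11.7 to 12.4 against 9.63 to 9.81). Of 11 neutrophil genes 3 were called higher and 8 lower, of 7 mast cell and basophil genes 1 higher and 6 lower, and of 8 stem and progenitor genes 0 higher and 4 lower. Erythroid genes had 1 of 4 called higher and 0 lower, with a median difference of 0.005. Their summed level, which follows the brightest genes, was 8.80 to 9.77 on Ctrl arrays and 10.1 to 10.9 on NMyc arrays. The T and NK list had 0 of 5 called, the B list 1 of 5 called higher, and the fibroblast list, kept for the packaging line, 1 higher and 2 lower of 8, with a summed level of 9.67 to 11.25 on Ctrl arrays and 9.19 to 9.45 on NMyc arrays. With Hom-Ctrl replicate 1 left out, 7 folate and 5 glycolysis genes were called higher, 2 ATF4 response genes higher and 8 lower, and 0 fibroblast genes higher and 2 lower. The averaged counts of the other lists did not change. The part of these shifts in the N-Myc differences of the members was not tested.

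Between Hom-Ctrl and WT-Ctrl, where Mthfd2 and Mthfd1l were lower, 0 of 10 proliferation genes were called, 2 of 11 neutrophil genes and 1 of 7 monocyte and macrophage genes were called lower, and 2 of 7 mast cell and basophil genes and 1 of 8 stem and progenitor genes and 1 of 8 fibroblast genes were called higher. With that Hom-Ctrl array (replicate 1) left out, the counts were 2 neutrophil and 2 monocyte and macrophage genes lower, and 2 mast cell, 0 stem and progenitor and 0 fibroblast genes higher. The summed neutrophil level was 15.5 to 15.6 in Hom-Ctrl and 15.8 to 15.9 in WT-Ctrl, with a median difference of -0.27. The summed stem and progenitor level was 12.7 to 12.9 in Hom-Ctrl and 12.3 to 12.5 in WT-Ctrl. A sum follows its brightest genes, and the median difference of the 8 stem and progenitor genes was -0.02. Of these, 2 did not exceed the negative control median on either Hom-Ctrl array. The summed fibroblast level was 10.98 to 11.25 in Hom-Ctrl and 9.67 to 10.91 in WT-Ctrl. The part of these differences in the lower Mthfd2 and Mthfd1l was not tested. The contrast between positive and negative control sets, a measure of array signal quality, was 3.60 to 4.17 on Ctrl arrays and 4.04 to 4.52 on NMyc arrays, and its part in the N-Myc differences was not tested either. WT-Ctrl replicate 3 was the highest array of its group for 8 of 10 members and Het-Ctrl replicate 3 for 6 of 10; both belong to code run 3, which holds no Hom-Ctrl array.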

How the data were processed

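RNA from 14 samples was hybridised to Affymetrix whole-transcript mouse arrays. The authors deposited log2 values, 1 for each probe set on each array; the submitters' processing notes name Affymetrix Expression Console. How probes were summarised and normalized is not given in the sources used here. That the scale is log2 follows from the range (2.39 to 13.5 among tested sets). Any scaling before deposit would have removed a shift common to most transcripts. Of 28846 probe sets, 6640 array controls were left out, by their IDs (31 begin with AFFX). The platform annotation gave 1 symbol to 19572 of the 22206 tested sets, and 2634 stay unnamed; RefSeq (GRCm38.p6) changed 0 symbols.

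All arrays entered 1 limma model of 6 group means (limma 3.58.1 in R 4.3.3, lmFit and eBayes; 8 residual and 7.30 prior degrees of freedom), and 13 comparisons were tested, each adjusted over all tested sets, with no filter on low values and an adjusted p under 0.05 as a call. Within-array ratios of 6 gene pairs used an exact permutation test. The fit and the ratio test were tested on simulated data. The number of arrays limits the precision. Deviations from the group means correlated above 0.1 in 7 of 31 same-number pairs of arrays (-0.133 to 0.266), among them all 3 pairs of WT-Ctrl and Het-Ctrl (0.235, 0.266 and 0.249), which were taken as paired from the data; NMyc arrays share no number with the Ctrl arrays of their code run. Of 28 pairs within a code run, 26 correlated above 0.

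The members and gene lists were chosen with earlier results of these data known. Named besides the members are the 3 genes most correlated with each over the 14 arrays, or the first of them, and in each list up to 4 genes of smallest p in the averaged N-Myc effect and up to 3 in Hom minus WT with Ctrl. Alternatives were quantile normalization, median centring, a filter on low values, AFFX controls only, a trended robust eBayes, array weights, fits of the compared groups alone, replicate or code run blocks, code runs 2 and 3 only, and leaving out each array. Counts of list genes without Hom-Ctrl replicate 1 and the paired fit of Het-Ctrl and WT-Ctrl were added after seeing the data.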

Additional observations from a re-analysis of the deposited data

How the results depend on the processing

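Over 24 alternative settings, the N-Myc calls of Phgdh, Psat1, Psph, Shmt1, Shmt2, Mthfd1 and Mthfd1l averaged over genotypes were kept. Of 1392 single-gene values, 1311 kept their direction and their side of the threshold, 55 lost a call, 11 gained one and 15 changed sign. Many settings cannot move a given log2 difference, as when the array left out is of a group outside the comparison. The share kept is therefore no measure of robustness. The members called in Hom-Ctrl minus WT-Ctrl (2) became 0 with only the groups compared in the fit, where 0.82% of all probe sets were called. With code runs 2 and 3 only, which leave 1 Hom-Ctrl array, the call of Mthfd1l was lost. Calls were also lost with some single arrays left out. The members called in Hom-Ctrl minus Het-Ctrl (1) became 0 with array median centring, where 2.36% of all probe sets were called. They also became 0 with only AFFX controls left out (0.802%), array weights (1.63%) and only the groups compared (0.973%). With the replicate block (2.02%) they were 0 as well (Mthfd1l -0.66, limma adjusted p = 0.0564), and with the trended robust eBayes (3.98%) they were 2. The call was also lost with code runs 2 and 3 only, which leave 1 Hom-Ctrl array, and with most single arrays left out. The block for the replicate number, over all arrays, also raised Mthfd2 averaged (0.30, adjusted p = 0.0106), Aldh1l2 averaged (0.30, adjusted p = 0.0477) and Psph in WT (0.54, adjusted p = 0.0130) past the threshold. Values near 0 in Hom-Ctrl minus WT-Ctrl changed sign: Psat1 to 0.093 with the replicate block, 0.042 with the code run block and 0.184 with code runs 2 and 3 only; Shmt1 to 0.106, 0.040 and 0.088 under the same settings; Mthfd2l to -0.115 with code runs 2 and 3 only. With an array left out, Phgdh ranged from -0.299 to 0.009, Psat1 from -0.423 to 0.312, Shmt1 from -0.154 to 0.173 and Mthfd2l from -0.147 to 0.351, and Mthfd2l NMyc minus Ctrl in Hom from -0.024 to 0.474. The within-array ratio changes with an array left out ranged from -0.447 to -0.347 for Mthfd1l over Mthfd1 and from 0.045 to 0.218 for Phgdh over Psat1. The cause of these changes was not tested. Quantile normalization and centring moved the median of all sets by at most 0.05. The alternative of another probe set was not run, since each member has 1. Aldh1l2 and Mthfd2l had the lowest signals of the members. The SE of the averaged N-Myc difference was largest for Shmt2 (0.17) and Aldh1l2 (0.14), and was 0.11 for Mthfd2l.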
